A study of Mus musculus with 4 samples.

Results

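The serpins are a family of structurally related proteins, most of which block serine proteases. The members described here are the 61 mouse genes, of 24063 in the tables, whose symbol is Serpin followed by a clade letter from a to i and a number; 2 further symbols that fit the pattern were left out by the rule. The rule reads symbols and no values. For each gene the transcript row with the highest mean count over all libraries was used. Angiotensinogen, a serpin by sequence under another symbol, is not a member.

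The series holds 4 poly-A RNA libraries of mouse liver tumours from C57BL/6 animals (C57BL6/J in the sample titles), labelled as overexpressing MYC and PMEPA1, with no treatment. Both were brought in through hydrodynamic tail vein delivery, a fast injection of a large volume by which plasmid DNA reaches mainly hepatocytes, and the promoters that drive them were not given in the sources used here. The tumours carry the replicate numbers 1, 5, 9 and 10 and form 1 group with no control group, so the differences between tumours were the measurement. The labels give 8 to 10 passages for each tumour and leave unsaid whether each came from an animal of its own, so p-values measure only the spread between these libraries, which may be technical.

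A serpin offers a protease an exposed loop as bait. The protease cuts the loop after a residue called P1 and is then locked in a covalent complex as the cut loop folds into the serpin's central sheet, which inactivates both. The residues around P1 set which proteases are caught. Hepatocytes secrete most of the serpins of blood plasma, among them inhibitors of elastase, plasmin and the first complement enzymes. Clade b members mostly stay inside cells, and a few members, such as the hormone carriers Serpina6 and Serpina7 and the collagen chaperone Serpinh1, inhibit no protease.

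The mouse has several copies of the alpha-1-antitrypsin gene, where the human has 1, and several copies of the antichymotrypsin gene. All lie in a cluster on chromosome 12, and reads from the copies are hard to assign. The bait loop is where the copies differ most, so it is shown for the expressed copies, some of which the counts separate poorly. The segments for Serpina1a to Serpina1e are 81 coding bases in the last of 5 exons, read from GENCODE M21 on GRCm38, minus strand, with the P1 codon in capitals.
Serpina1a, chr12:103853750-103853830: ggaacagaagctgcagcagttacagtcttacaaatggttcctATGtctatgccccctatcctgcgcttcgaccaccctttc
Serpina1b, chr12:103728317-103728397: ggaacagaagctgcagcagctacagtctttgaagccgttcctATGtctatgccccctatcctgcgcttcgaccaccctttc
Serpina1c, chr12:103895087-103895167: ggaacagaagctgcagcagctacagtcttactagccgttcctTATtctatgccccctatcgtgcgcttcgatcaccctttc
Serpina1d, chr12:103763755-103763835: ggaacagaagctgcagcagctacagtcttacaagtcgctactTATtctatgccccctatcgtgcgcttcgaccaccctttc
Serpina1e, chr12:103947093-103947173: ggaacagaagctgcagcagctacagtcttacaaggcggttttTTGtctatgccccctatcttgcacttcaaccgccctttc

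Serpina1a and Serpina1b share the capital codon, Serpina1c and Serpina1d share another, and Serpina1e has its own. Over this segment the 5 copies were 85.19 to 93.83% identical in pairs, against 96.89 to 99.22% over the rest of the coding sequence. The 4 antichymotrypsin-like copies that were expressed differ more. Their segments are on the plus strand of chromosome 12, from the same annotation. The capitals mark the stretch between the hinge and the end of the loop. The hinge and the end encode the same amino acids in these copies but differ in some bases.
Serpina3g, chr12:104241072-104241161: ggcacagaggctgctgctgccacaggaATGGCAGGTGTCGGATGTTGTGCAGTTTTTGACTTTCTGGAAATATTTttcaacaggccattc
Serpina3k, chr12:104345269-104345352: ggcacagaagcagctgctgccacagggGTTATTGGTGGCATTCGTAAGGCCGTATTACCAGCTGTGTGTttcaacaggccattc
Serpina3m, chr12:104393769-104393858: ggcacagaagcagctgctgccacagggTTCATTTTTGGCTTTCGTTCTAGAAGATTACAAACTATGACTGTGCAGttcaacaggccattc
Serpina3n, chr12:104413448-104413537: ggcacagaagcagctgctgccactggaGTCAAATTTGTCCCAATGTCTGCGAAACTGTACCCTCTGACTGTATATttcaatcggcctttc

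Serpina3k, Serpina3m and Serpina3n were 68.48 to 75.56% identical in pairs over the segment, against 83.85 to 92.31% over the rest of the coding sequence. Serpina3g has a shorter coding model in this annotation and was left out of that comparison. How far reads can tell the copies apart was measured as the share of windows of 50 bases in a transcript that occur in no annotated transcript of another serpin gene. Only 27.84% of the windows of Serpina1a and 26.68% of those of Serpina1c were unique, against 55.02% for Serpina1b, 51.97% for Serpina1d and 62.12% for Serpina1e. The Serpina3 copies had 80.93% (Serpina3m) to 93.1% (Serpina3n) unique windows. The transcripts examined were not always as long as the counted row. For Serpina1a 1311 windows were examined, while the counted row has 1939 bases, so part of it was not covered. For Serpina3g the examined transcript was also shorter (1754 windows, 2020 bases), and for Serpina3k it was longer (2008 windows, 1652 bases). By these windows, levels of single Serpina1 copies are uncertain, Serpina1a and Serpina1c above all, while the sum over the copies is less affected.

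Library totals over genes ran from 41547938 to 51939623 counts, and 3 counts correspond to 0.0524 to 0.0892 counts per 1000000 (CPM, scaled by edgeR's TMM method). Such floors cover counting error only. Genes averaging 1 CPM or more were called expressed, which held for 13129. Of 6 hepatocyte markers, all had 2.22 CPM or more in every tumour and 5 were highest in tumour 10 (35.8% of all expressed genes). All 8 neutrophil markers were highest in tumour 9 (21.6%). They summed to 553 CPM there, against 11.6, 13.3 and 23.2 CPM in tumours 1, 5 and 10. Some of the 8 averaged under 1 CPM over tumours 1, 5 and 10 and passed the filter through tumour 9 alone, so the count is a description. In bulk samples fewer cells of a type and less RNA per cell cannot be told apart.

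Of the 61 serpin genes, 25 were expressed: 15 of 25 in clade a, 4 of 27 in clade b, 2 of 3 in clade e, both of clade f, the only members of clades g and h, and none of clade i. On chromosome 12, the site of the clade a cluster, 14 of 24 members were expressed. By mean CPM per kilobase of transcript, the highest member was Serpina1b (736), followed by Serpinf2 (326), Serpinf1 (268), Serpina1c (206) and Serpina1a (192). Just above the threshold of 1 CPM lay Serpinb6b at a mean of 1.32 CPM and Serpina4-ps1 at 1.98 CPM, and just below it Serpini1 at 0.812 and Serpine3 at 0.803 CPM. Serpina5 and Serpina4-ps1 passed through tumour 10 alone, and the mean over their lower 3 tumours was 0.0524 and 0.182 CPM. Such genes had to differ between tumours, so counts over the family are also given for the 23 other members, beside the genes that averaged 1 CPM or more over their lower 3 tumours, a choice made after seeing the data.

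**Figure D1:**
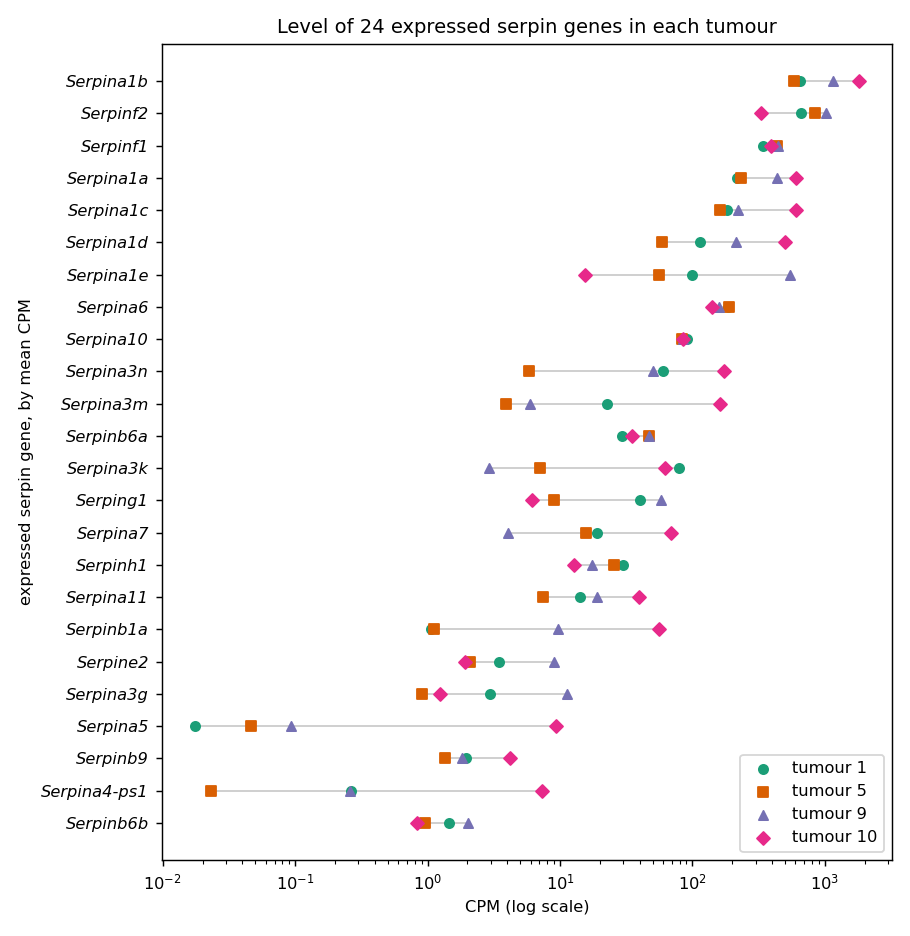
Level of 24 of the 25 expressed serpin genes (rows, ordered by mean CPM, not per length) in each tumour, in CPM on a log axis; 1 symbol per tumour, with a grey line over the range. Serpina10, Serpinf1 and Serpina6 sit within a narrow range, while Serpina5, Serpina4-ps1, Serpinb1a and Serpina3m span the widest ranges and are highest in tumour 10.

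The whole family summed to 2982, 2819, 4531 and 5229 CPM in tumours 1, 5, 9 and 10. The average was 3890 ± 1179 CPM (SD, n = 4), and the sums were 0.329, 0.291, 0.497 and 0.419% of the gene counts. Without Serpina1a to Serpina1e the family summed to 1722, 1728, 1971 and 1682 CPM, on average 1775 ± 132 CPM (SD, n = 4). With Serpinf2 left out as well, the sums were 1056, 892, 945 and 1353 CPM, with tumour 10 highest, but as percentages of the gene counts, without TMM factors, they were 0.116, 0.0919, 0.104 and 0.108%, with tumour 1 highest.

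The expressed serpins differed between tumours more widely than most genes. The standard deviation (SD) of log2 CPM over the tumours was at least 1 for 13 of the 25, against 16.6% of all expressed genes, and its median was 1.01 for the serpins and 0.45 for all expressed genes. Over the 23 members the count was 11, against 13.9%, and the median 0.999, against 0.43. By a Poisson heterogeneity test, all 25 varied beyond counting error at an adjusted p of 0.05, as did 98.7% of all expressed genes, so this count says little about the family. With 5% of technical variation added to the Poisson model, 24 of 25 passed, against a background of 94.1%. The exception was Serpina10, with an adjusted p of 0.578.

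**Figure D2:**
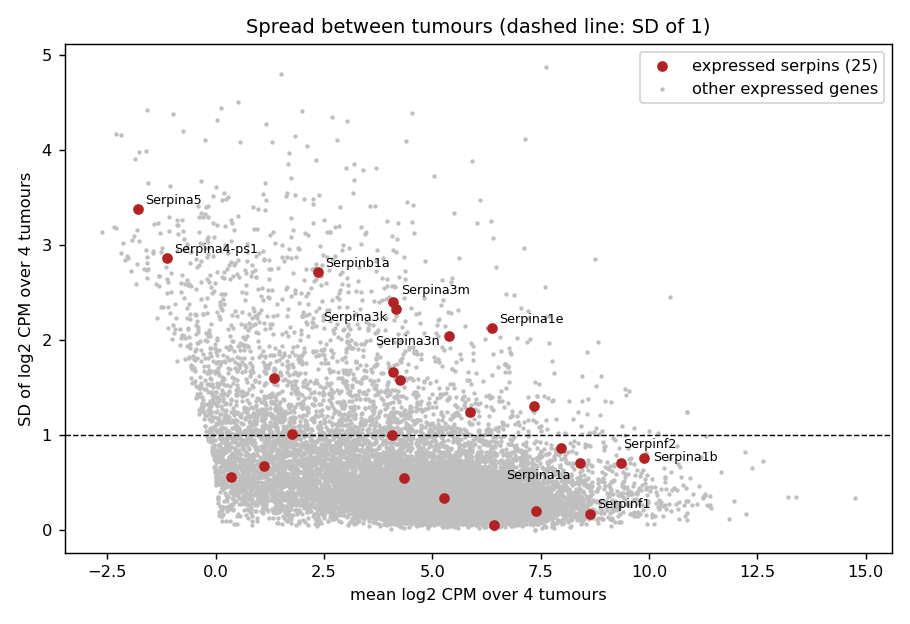
SD of log2 CPM over the 4 tumours (vertical axis) against mean log2 CPM (horizontal axis) for the 25 expressed serpins (red) and the other expressed genes (grey); the dashed line marks an SD of 1. Of the serpins, 13 lie above the line, and Serpina10, Serpinf1 and Serpina6 lie near the bottom.

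Tumour 10 held the highest level of 12 of the 25 serpins, where it held that of 35.8% of all expressed genes. Tumour 9 was highest for 8 (background 21.6%), tumour 1 for 4 (21.4%) and tumour 5 for only 1 (21.2%). The median serpin lay 0.83 log2 units above its 4-tumour mean in tumour 10 and at -0.63 in tumour 5, while the median over all expressed genes lay at 0.02 and -0.00. In tumour 5, 10 serpins lay at least 1 log2 unit below their mean, where 4.84% of all expressed genes did, and none lay that far above (3.69%). In tumour 10, 10 lay that far above (9.45%) and 3 that far below (8.22%). In tumour 1 the counts were 3 above (3.67%) and 2 below (3.33%), and in tumour 9 they were 4 above (7.02%) and 5 below (4.91%). Over the 23 members, 10 were highest in tumour 10 (36.3% of genes) and 8 lay at least 1 log2 unit above their mean there (8.81%), with a median of 0.59, and 8 lay that far below their mean in tumour 5 (3.72%). These counts are descriptions, and paralogs that share reads enter them as separate genes.

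**Figure D3:**
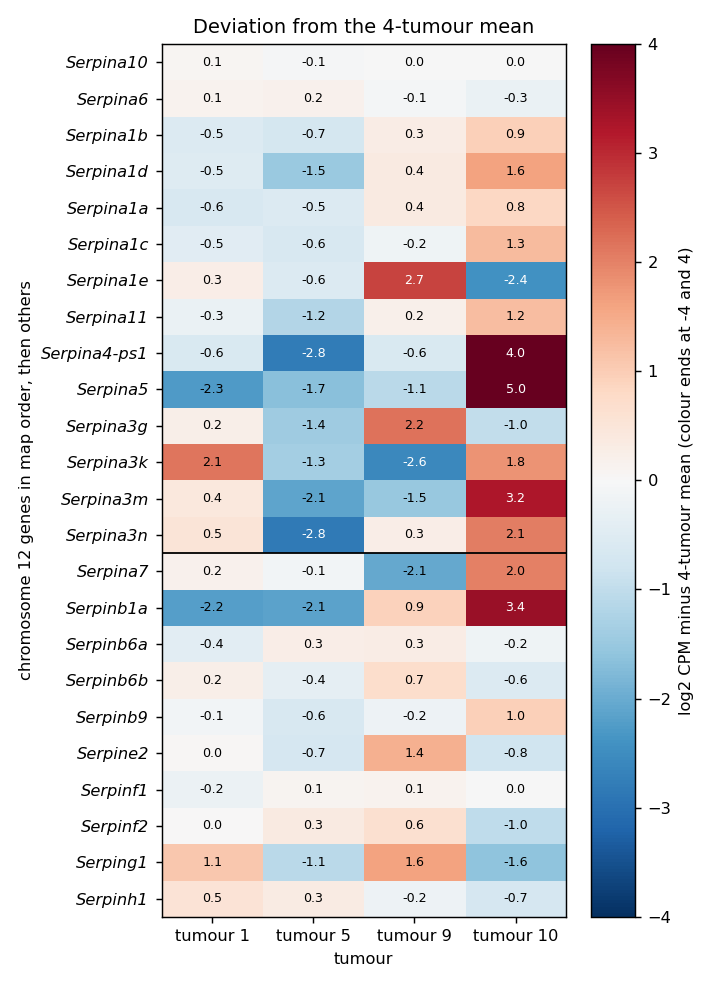
Deviation of 24 of the 25 expressed serpins from their 4-tumour mean in log2 CPM (colour and printed value), by tumour; genes above the black line lie on chromosome 12 in map order. The column of tumour 10 is mostly red and that of tumour 5 mostly blue, but Serpina1e is at -2.4 and Serping1 at -1.6 in tumour 10.

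Each tumour was set against the other 3 with edgeR's quasi-likelihood test. No serpin passed it with Benjamini-Hochberg adjustment over all genes and tumours, and neither did any other gene (0% of 13129 for each tumour). Below an unadjusted p of 0.05 lay 10 serpins in tumour 10 (22.1% of all genes), 4 in tumour 9 (5.66%), 1 in tumour 5 (0.922%) and none in tumour 1 (0.716%). DESeq2's Wald test, adjusted the same way, called 5 serpins in tumour 10 (10.4% of all genes), 3 in tumour 9 (2.52%), 1 in tumour 5 (0.358%) and none in tumour 1 (0.221%). Over the 23 members, 8 lay below the unadjusted p in tumour 10 (22.2%) and DESeq2 called 3 there (10.5%). Adjusted within tumour 10 alone, edgeR called none of the 23, against 1.75% of genes. Limma-voom called no serpin in any tumour, and no other gene either (0% of 13129 for each tumour). With tumour 9 left out, edgeR called 3 serpins, all in tumour 10, where it called 411 of 12867 genes: Serpina1c, Serpinb1a and Serpina5, which passed the filter through that tumour alone. The lone tumour of each contrast has no replicate, so every p, by edgeR or by DESeq2, describes that library and not a condition.

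Alpha-1-antitrypsin is the main plasma inhibitor of neutrophil elastase. Its most abundant copy was Serpina1b (NM_009244, GRCm38 chromosome 12, 103728156 to 103738189, minus strand), which had 645, 582, 1151 and 1817 CPM in tumours 1, 5, 9 and 10 (mean 1049 ± 572, SD, n = 4). Serpina1a (103853295 to 103863619) had 219, 232, 433 and 606 CPM. Serpina1c (103894926 to 103904950) had 182, 162, 222 and 606 CPM. All of these were highest in tumour 10 and lowest in tumour 1 or 5, with tumour 9 between. With library totals and no TMM factor, Serpina1a lay 0.52 log2 units above its mean in tumour 10 and 0.49 in tumour 9. For Serpina1b these values were 0.63 and 0.42. Serpina1d (103763587 to 103773633) had the same order as Serpina1b at a wider range, with 115, 59.2, 212 and 503 CPM. For tumour 10 against the other 3, the log2 difference was 1.20 for Serpina1b, 1.68 for Serpina1c and 1.97 for Serpina1d. Serpina1c came nearest to a call, with an adjusted p of 0.197 by edgeR and 5.95e-05 by DESeq2.

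Serpina1e (NM_009247, chromosome 12, 103946931 to 103956897, minus strand) went its own way. It had 542 CPM in tumour 9, against 99.2, 56.0 and 15.5 CPM in tumours 1, 5 and 10, and so was lowest where the other 4 copies were highest. Its SD of log2 CPM was 2.13, against 0.71 to 1.31 for the other copies. The difference of tumour 9 from the other 3 was 3.25 log2 units, with an adjusted p of 0.496 by edgeR and 0.0418 by DESeq2.

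Summed over the copies, which shared reads affect least, alpha-1-antitrypsin reached 1260, 1092, 2560 and 3547 CPM in tumours 1, 5, 9 and 10. As percentages of the gene counts, without TMM factors, the sums were 0.139, 0.113, 0.281 and 0.284%. The lead of tumour 10 over tumour 9 thus depends on the scaling. The mix of copies differed between tumours far beyond counting error. Serpina1e held 21.2% of the counts of the 5 copies in tumour 9 (Wilson 95% interval 20.97 to 21.40) and 0.436% in tumour 10 (0.400 to 0.475), with 7.87% in tumour 1 and 5.13% in tumour 5. Serpina1b held 51.2, 53.3, 45.0 and 51.2%, and Serpina1a 17.4, 21.2, 16.9 and 17.1%, so their parts of the total varied less. Serpina1d held 14.2% in tumour 10, against 9.13, 5.42 and 8.27% in tumours 1, 5 and 9. In tumour 10 Serpina1a and Serpina1c had almost the same count, 20368 and 20372. In the transcripts examined, these copies had the fewest unique windows.

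**Figure D4:**
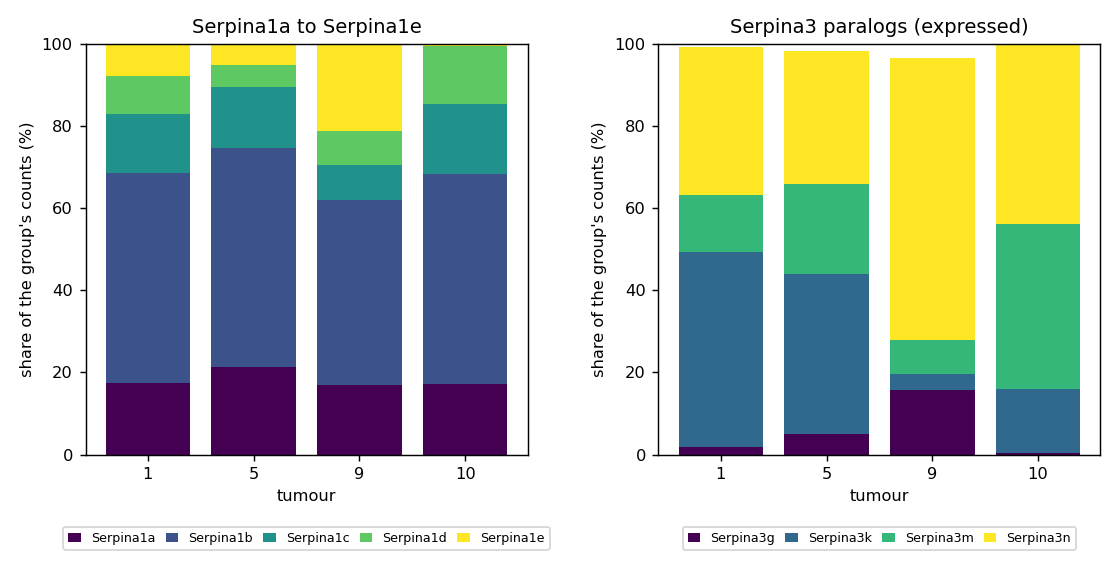
Share of each copy in the counts of its paralog group (percent), per tumour, for Serpina1a to Serpina1e (left) and for the 4 expressed Serpina3 copies as a share of 11 Serpina3 genes (right, so bars can end below 100). Serpina1e takes 21.2% of the Serpina1 counts in tumour 9 and 0.436% in tumour 10; Serpina3k takes 47.6% of the Serpina3 counts in tumour 1 and 4.02% in tumour 9.

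The promoters of these copies are shown because the copies differed in pattern. The bases printed around a shared motif are nearly the same, while its distance from the annotated start differs. Identity over the whole promoter was not measured, and the part of the promoters in the patterns was not tested. Each window is from RefSeq on GRCm38.p6, minus strand, and ends at or before the annotated start, and the capitals mark GTTAAT, the core half-site bound by the hepatocyte factor HNF1.
Serpina1a, chr12:103863620-103863680: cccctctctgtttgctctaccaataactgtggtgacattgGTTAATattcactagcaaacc
Serpina1b, chr12:103738190-103738255: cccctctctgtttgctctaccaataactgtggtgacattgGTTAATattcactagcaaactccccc
Serpina1c, chr12:103904951-103905017: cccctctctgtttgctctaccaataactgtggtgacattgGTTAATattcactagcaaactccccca
Serpina1d, chr12:103773634-103773689: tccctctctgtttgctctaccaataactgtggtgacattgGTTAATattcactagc
Serpina1e, chr12:103956936-103957015: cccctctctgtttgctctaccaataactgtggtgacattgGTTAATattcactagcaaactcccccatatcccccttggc

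The half-site lay 21, 26, 27, 16 and 78 bases before the annotated start of Serpina1a, b, c, d and e. Within 250 bases before the start, on either strand, GTTAAT occurred in 6 of 17 expressed serpins with a promoter in the table (35.29%), namely the 5 copies above and Serpina7, and in 5 of 33 serpins below the threshold (15.15%). The share was 7.486% over 27025 genes. A match is a description and not evidence of binding.

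The antichymotrypsin-like Serpina3 genes, which liver and other tissues raise in inflammation, varied widely. The 11 genes summed to 165, 18.0, 72.7 and 400 CPM in tumours 1, 5, 9 and 10, so tumour 5 was lowest and tumour 10 highest. Serpina3n (NM_009252, chromosome 12, 104406646 to 104414334, plus strand), an inhibitor of granzyme B and cathepsin G, had 59.6, 5.81, 50.1 and 174 CPM. It was lowest in tumour 5, with a difference from the other 3 of -4.02 log2 units and an adjusted p of 0.448 by edgeR and 0.000317 by DESeq2. Serpina3m (104387157 to 104394259) had 161 CPM in tumour 10, against 22.8, 3.92 and 5.96 CPM in tumours 1, 5 and 9, a difference of 3.89 log2 units with an adjusted p of 0.411 by edgeR and 0.00165 by DESeq2.

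The other Serpina3 copies had patterns of their own. Serpina3k (104338486 to 104345739), known as the kallikrein-binding protein, had 78.6, 7.0, 2.92 and 62.4 CPM, high in tumours 1 and 10 and low in tumours 5 and 9. Serpina3g (104236147 to 104241939), known as a cytosolic inhibitor of cathepsins in leukocytes, had 11.4 CPM in tumour 9, against 2.97, 0.911 and 1.25 CPM in tumours 1, 5 and 10. It was thus highest in tumour 9, where all neutrophil markers were highest. So were 4 of 5 macrophage, 4 of 5 endothelial and 4 of 6 stellate cell and fibroblast markers (21.6% of all expressed genes). The part of any of these cells in the level of Serpina3g was not tested. As a share of the group's counts, Serpina3k held 47.6% in tumour 1 and 4.02% in tumour 9, Serpina3n 36.1 and 68.8%, and Serpina3m 13.8 and 8.19% in these tumours. The remaining 7 copies, Serpina3a, b, c, f, h, i and j, stayed below 1 CPM on average, the highest being Serpina3f at 0.544 CPM.

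The other clade a members of chromosome 12 ranged from the steadiest to the most variable of the family. Serpina10, which with protein Z inhibits factor Xa (NM_144834, 103616675 to 103631490, minus strand), had 91.3, 83.1, 84.3 and 85.6 CPM (mean 86.1 ± 3.66, SD, n = 4). Its SD of log2 CPM, 0.06, was smaller than that of all but 0.495% of expressed genes. Serpina6, the corticosteroid-binding globulin, had 185, 189, 159 and 140 CPM (mean 169 ± 23.1, SD, n = 4). Neither was highest in tumour 10. The flatness of these genes depends on the scaling. Library totals with no TMM factor shift the median of all genes by 0.14, 0.04, 0.13 and -0.32 log2 units (tumours 1, 5, 9 and 10), and all other values are given relative to TMM. Those totals place Serpina10 at -0.33 log2 units from its mean in tumour 10, against -0.01 with TMM; in tumour 9 the values are 0.11, against -0.03 with TMM, and in tumour 1 they are 0.23, against 0.09. In tumour 10 the same totals give -0.57, against -0.25 with TMM, for Serpina6 and -0.34, against -0.02, for Serpinf1, a clade f member.

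Serpina5 and Serpina4-ps1 are neighbours on the plus strand of chromosome 12 and had nearly all their counts in tumour 10. Serpina5 (NM_172953, 104099313 to 104106138), the protein C inhibitor, had 313 counts in tumour 10, against 1, 2 and 5 in tumours 1, 5 and 9. That is 9.31 CPM, against 0.0175, 0.0467 and 0.0931 CPM, where the first pair rest on fewer than 3 counts. Serpina4-ps1 (NR_002861, 104077959 to 104086920), which the table lists as non-coding, had 248 counts in tumour 10 (7.37 CPM), against 15, 1 and 14 in tumours 1, 5 and 9. Both passed the filter through tumour 10 alone, so no p-value for that tumour is printed for them. Both are included in the family counts for tumour 10, below the unadjusted edgeR p and among the DESeq2 calls. Settings in which edgeR called Serpina5 in tumour 10 are named where they occur. A high level there was favoured by the filter, so these calls are descriptions.

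Serpina7, the thyroxine-binding globulin, lies on chromosome X (139079249 to 139085236, minus strand) and also carries the half-site. It had 68.7 CPM in tumour 10, against 19.1, 15.6 and 4.04 CPM in tumours 1, 5 and 9. Serpina11, a secreted member of chromosome 12, had 39.5 CPM in tumour 10, against 14.0, 7.42 and 19.1 CPM. Both were highest in tumour 10, but Serpina7 was lowest in tumour 9 and Serpina11 in tumour 5. Their unadjusted p for tumour 10 was 0.0328 and 0.0326, and their adjusted p by edgeR 0.589 for both.

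The pair of clade f serpins differed in how widely they varied. Serpinf2, the alpha-2-antiplasmin that stops plasmin (NM_008878, chromosome 11, 75431736 to 75439501, minus strand), had 329 CPM in tumour 10, against 666, 836 and 1026 CPM in tumours 1, 5 and 9. It was lowest in tumour 10, with a difference of -1.36 log2 units and an adjusted p of 0.397 by edgeR and 0.00623 by DESeq2. Its neighbour Serpinf1 (75410029 to 75422623), the angiogenesis inhibitor PEDF, which inhibits no protease, stayed close to its average, at 338, 433, 439 and 392 CPM (mean 401 ± 46.5, SD, n = 4). Plg, the precursor of plasmin, was highest where Serpinf2 was lowest, with 1343 CPM in tumour 10, against 344, 254 and 474 CPM. Its list of plasminogen and HGF activation was mixed. Of 7 expressed genes, 3 were highest in tumour 10 (35.8% of all expressed genes). There 2 lay at least 1 log2 unit above their mean (9.45%) and 3 that far below it (8.22%). Serpine2, protease nexin-1, which blocks thrombin and plasminogen activators at the cell surface (chromosome 1, 79794317 to 79858665), had 9.06 CPM in tumour 9, against 3.46, 2.10 and 1.93 CPM in tumours 1, 5 and 10. It was low throughout and highest in tumour 9.

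Serping1, the C1 inhibitor of the complement and contact systems (NM_009776, chromosome 2, 84765360 to 84775444, minus strand), had 40.4, 8.97, 57.9 and 6.15 CPM. It was high in tumours 1 and 9 and low in tumours 5 and 10. C1s1, a protease that it inhibits, had 143, 141, 130 and 433 CPM, and so was highest where Serping1 was lowest. Serpinh1, the chaperone HSP47 that folds collagen in the endoplasmic reticulum (chromosome 7, 99345375 to 99353239, minus strand), had 29.7, 25.6, 17.6 and 12.8 CPM. It was lowest in tumour 10. There 5 of 6 stellate cell and fibroblast markers lay at least 1 log2 unit below their mean (8.22% of all expressed genes), and the markers summed to 105 CPM, against 383, 273 and 488 CPM in tumours 1, 5 and 9; their part in its level was not tested. Of 14 genes for collagens and collagen folding, 11 were highest in tumour 9, where 21.6% of all expressed genes were.

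Clade b serpins work mainly inside cells. Serpinb6a, an inhibitor of cathepsin G (NM_001243192, chromosome 13, 33917918 to 34002794, minus strand), ranked first of them per kilobase and varied the least, with 29.3, 47.2, 47.3 and 34.8 CPM. Serpinb1a, which inhibits the serine proteases of neutrophil granules (NM_025429, chromosome 13, 32842092 to 32853206, minus strand), had 55.8 CPM in tumour 10, against 1.07, 1.12 and 9.73 CPM in tumours 1, 5 and 9. The neutrophil markers summed to 23.2 CPM in tumour 10 and to 553 CPM in tumour 9, and their part in its level was not tested. The difference of Serpinb1a for tumour 10 was 3.81 log2 units. Leaving out tumour 9, where it was second highest, gave 5.63 log2 units, with only tumours 1 and 5 left to compare against. Serpinb9, the inhibitor of granzyme B, had 4.16 CPM in tumour 10, against 1.94, 1.35 and 1.82 CPM. Serpinb6b had 1.45, 0.957, 2.03 and 0.833 CPM, so both stayed low throughout.

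Of the 36 members below the threshold, 15 had no count in any tumour and 9 had 1 to 10 counts in all. Without a count were 13 clade b genes, among them Serpinb3a to Serpinb3d, relatives of the human squamous cell carcinoma antigens, and also Serpina9 and Serpini2. A count of 0 allows up to 3 counts, or 0.0524 to 0.0892 CPM. Serpinb8 had 77 counts in tumour 10, against 20, 9 and 16 in tumours 1, 5 and 9. Serpina12, known as vaspin, had 21, 2, 1 and 7 counts, and Serpinb5, known as maspin, 1, 0, 1 and 0. Keratinocyte markers were low too, at a summed 0.384 CPM or less in every tumour.

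Proteases that serpins inhibit and the other plasma inhibitors were read from lists for comparison. Of 7 expressed enzymes of neutrophil and mast cell granules, all 7 lay at least 1 log2 unit above their mean in tumour 9, where 7.02% of all expressed genes did. Prtn3, proteinase 3, had 29.6 CPM there, against 5.49, 1.87 and 0.743 CPM in tumours 1, 5 and 10, and Ctsg, cathepsin G, 13.9 CPM, against 0.122, 0.327 and 0.149 CPM. Ctsg, and Tpsb2 of the same list, stayed below 1 CPM in tumours 1, 5 and 10 and passed the filter through tumour 9 alone. For such genes a high level in tumour 9 was built in by the filter, so the count is a description. Of the 5 cytotoxic granule proteases none was expressed, while Serpina3n, which inhibits granzyme B, reached 174 CPM in tumour 10.

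Of 9 clotting and contact proteases, 5 lay at least 1 log2 unit above their mean in tumour 10 (9.45% of all expressed genes) and 8 were highest there (35.8%). F2, prothrombin, had 1609 CPM in tumour 10, against 532, 597 and 597 CPM in tumours 1, 5 and 9. All 7 expressed complement serine proteases were highest in tumour 10 too (35.8%), and 1 of them, C1s1, lay at least 1 log2 unit above its 4-tumour mean (9.45%). Tmprss6, a membrane protease of hepatocytes, had 291 CPM in tumour 10, against 28.8, 35.5 and 42.1 CPM.

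Of 23 other protease inhibitors, 7 lay at least 1 log2 unit above their mean in tumour 10 (9.45% of all expressed genes), 5 that far below it (8.22%) and 12 were highest there (35.8%). Kng1, kininogen, which inhibits cysteine proteases, had 2064 CPM in tumour 10, against 342, 244 and 556 CPM in tumours 1, 5 and 9. A2m, alpha-2-macroglobulin, was lowest in tumour 10, with 192, 51.8, 11.6 and 0.981 CPM. The acute phase and STAT3 list, like Serpina3n, was low in tumour 5 and high in tumour 10: of 14 genes, 8 lay at least 1 log2 unit below their mean in tumour 5 (4.84%) and 7 that far above it in tumour 10 (9.45%). Its most abundant gene Hp, haptoglobin, had 685, 71.5, 124 and 5814 CPM.

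Among 9 hepatocyte transcription factors, 6 were highest in tumour 10 (35.8% of all expressed genes) and 3 lay at least 1 log2 unit above their mean there (9.45%). Hnf4a had 809 CPM in tumour 10, against 508, 567 and 382 CPM in tumours 1, 5 and 9, and Cebpa 395 CPM, against 153, 109 and 175 CPM. The carrier proteins of plasma were also highest in tumour 10 in 5 of 6 cases (35.8%), with Alb at 13400 CPM there, against 4732, 4520 and 5594 CPM, unlike the carrier Serpina6, which was lowest there. Hepatocyte markers summed to 25480 CPM in tumour 10, against 8852, 9495 and 14054 CPM in tumours 1, 5 and 9. Their part in the levels of the serpins that were highest in tumour 10 was not tested. The 11 genes of endoplasmic reticulum quality control, which handle misfolded alpha-1-antitrypsin, mostly varied little, with a median SD of log2 CPM of 0.18. The most variable of them, Edem1, had an SD of 0.70 and was highest in tumour 10, with 80.9, 72.8, 95.6 and 212 CPM in tumours 1, 5, 9 and 10.

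**Figure D5:**
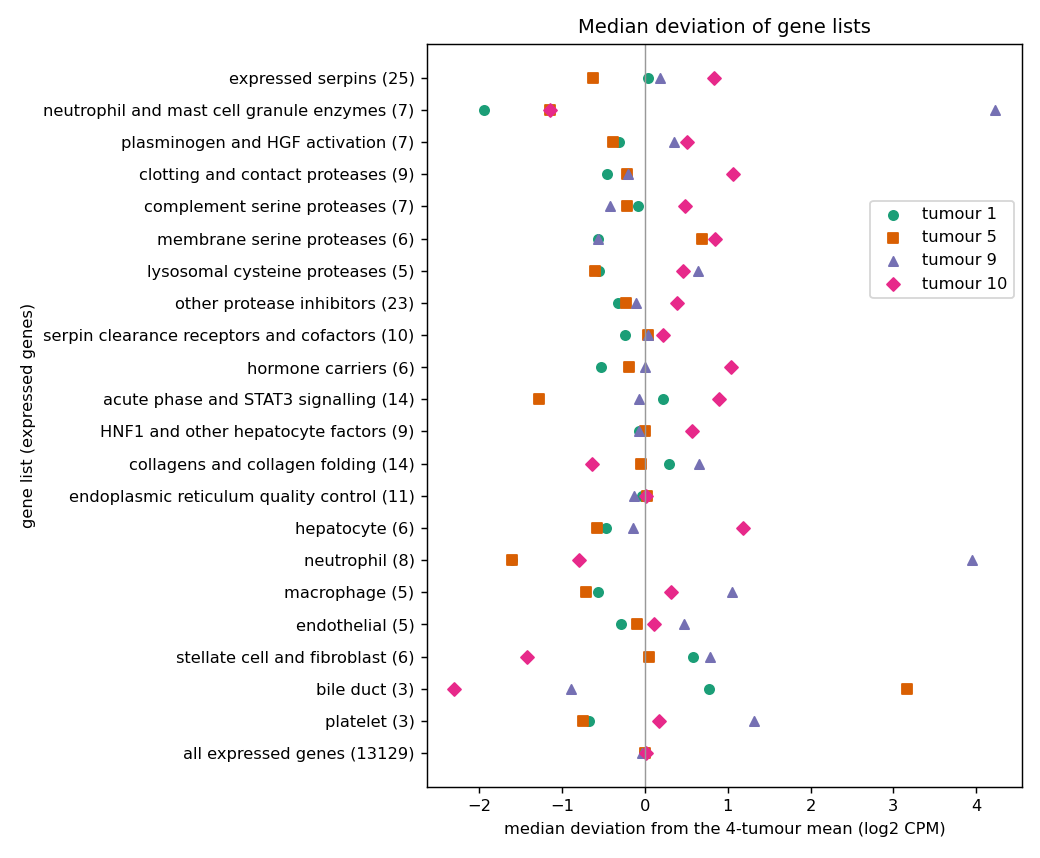
Median deviation from the 4-tumour mean (log2 CPM) for the expressed serpins, for each list and cell type marker set with at least 3 expressed genes, and for all expressed genes; the number of genes is in parentheses and each symbol is a tumour. The serpins, the acute phase list and the hepatocyte markers are lowest in tumour 5 and highest in tumour 10, and both neutrophil lists are near 4 in tumour 9.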

How the data were processed

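Poly-A RNA of 4 tumours was measured by RNA sequencing. Whole read counts per RefSeq transcript were deposited by the authors. FPKM and TPM, the names per the file headers, were deposited beside them and served here to check that unit and to derive transcript lengths. The submitters' processing notes name FastQC 0.11.8 and GRCm38, while aligner, counting program and use of strand were not given in the sources used here. Each gene was represented by its row with the highest mean count. Counts were scaled by TMM in edgeR 4.0.16 (R 4.3.3), with factors of 1.10, 1.03, 1.10 and 0.802 for tumours 1, 5, 9 and 10 and a prior count of 2 for log2 CPM. Expression meant a mean of at least 1 CPM, and genes with equal counts were kept.

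Spread beyond counting noise was judged by a chi-square test of Poisson heterogeneity. Single tumours were set against the remaining 3 by the robust quasi-likelihood test of edgeR (two-sided). Both were fitted on all 13129 expressed genes with Benjamini-Hochberg adjustment at 0.05. The lone tumour is assumed to vary like the other 3. DESeq2 1.42.0 and limma 3.58.1 were alternatives, and the tests were run on simulated data first. The alternatives were another scaling, other filters, the sum over rows, removal of symbols with equal counts, another prior count and leaving out each tumour, and, chosen after seeing the data, leaving out genes that passed the filter through 1 tumour alone. Outside the family, the genes named are among the 3 most abundant and the 1 most variable of each list, and not all of these are reported. The members and lists were chosen with earlier results of these data known. Loop segments and window counts come from GENCODE M21, and RefSeq promoters were found for 50 members. Wilson intervals cover counting error only. An expressed member that is not reported here by itself stays in the counts over the family.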

Additional observations from a re-analysis of the deposited data

Results flagged for a closer look

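In 35 values looked at (the log2 CPM of each expressed serpin, group sums and shares of paralogs), 3 had 1 tumour far from the other 3, judged by the gap to the nearest tumour divided by the whole range. Chance alone gives about 1 in 20. The log2 CPM of Serpina5 had a gap of 0.839 of the range, with tumour 10 highest (9.31 CPM, against 0.0175 to 0.0931 CPM). Serpina5 passed the filter through tumour 10 alone, so its gap was favoured by the filter and cannot be set against that rate. Its values in tumours 1, 5 and 9 rest on 1, 2 and 5 counts. The summed level of the family without Serpina1a to Serpina1e had a gap of 0.830, with tumour 9 highest at 1971 CPM, against 1682 to 1728 CPM. This one depends on the scaling: as a percentage of gene counts, without TMM factors, the values were 0.190, 0.178, 0.216 and 0.135% in tumours 1, 5, 9 and 10, with tumour 10 the lowest. The share of Serpina1a among the 5 alpha-1-antitrypsin copies had a gap of 0.897, with tumour 5 highest at 21.2%, against 16.9 to 17.4%.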

How the results depend on the processing

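The count of serpins beyond counting error, the median SD of log2 CPM and the summed levels stayed within 1.5 times of the reported value, or within 1 SD between tumours, under every alternative. With no filter beyond 1 count, 46 serpins were tested in place of 25, 22 had an SD of at least 1 in place of 13, 1 was called against the other 3 tumours (Serpina5 in tumour 10, where 123 of 19162 genes were called), and 8, 4, 15 and 19 were highest in tumours 1, 5, 9 and 10, in place of 4, 1, 8 and 12. With no filter beyond 1 count, the share of all genes with an SD of at least 1 was 19.6%, against 16.6% in the main setting. Shares of all genes highest in each tumour were not computed for that filter. With a mean of at least 5 CPM, 5 were highest in tumour 9. The number highest in tumour 5 was 2 with DESeq2 size factors and 0 with total counts only. The number called against the other 3 tumours differed by test, from none with limma-voom to some with DESeq2, and is given above beside the shares over all genes. With edgeR adjusted within each tumour, the only one was Serpina5, which passed the filter through tumour 10 alone. Leaving out Serpina5 and Serpina4-ps1, chosen after seeing the data, left 11 of 23 with an SD of at least 1, 10 highest in tumour 10 and none called by edgeR, adjusted within the tumour or over all.

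Leaving out 1 tumour gave 0 to 3 serpins called by edgeR. The 3, without tumour 9, were Serpina1c (adjusted p = 0.0465), Serpinb1a (0.0183) and Serpina5, which passed the filter through tumour 10 alone, each in tumour 10, where 411 of 12867 genes were called. The numbers highest in tumour 1, 5, 9 and 10 ranged from 4 to 9, 1 to 4, 8 to 14 and 12 to 15. With a tumour left out, its genes are highest in another one by construction; the cause of the other changes was not tested. No paired analysis was possible because the series holds 1 group. With 4 libraries and no control, depth was not what limited the abundant serpins; below about 10 counts the level rests on counting error.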
